A study of Mus musculus with 4 samples.

Results

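The enteric nervous system and the pacemaker cells of the gut wall were followed through 38 genes chosen by name: 18 neuronal genes, 11 genes of transmitters and neuron subtypes, 6 glial genes and 3 genes of interstitial cells of Cajal. Of the 38, 37 were among the 55203 genes listed in each of the 4 libraries, and Tubb3 was not analysed here. Levels are FPKM, a level of sequenced fragments relative to transcript length and to the mapped fragments of the library, summed over the transcripts of a gene, so they can be compared between genes per unit of length. All 37 genes had values above 0 in all 4 libraries, and 23 reached 1 FPKM in each of them.

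The libraries came from gut tissue of wild-type adult male C57BL/6NTac mice, aged 8 to 12 weeks and kept specific-pathogen-free (SPF). In the RVC group (2 libraries) the tissue was treated with 4 mM ribonucleoside vanadyl complex, an inhibitor of ribonucleases, and the other 2 libraries were labelled fresh frozen. A single handling protocol, which includes a rinse with RVC, accompanies all 4 libraries, so for the fresh-frozen tissue only the label says how it was handled. The labels do not say whether the 2 libraries of a group came from separate mice, and the p-values therefore measure the spread between these libraries, which may be technical.

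Enteric neurons lie in ganglia between and beneath the muscle layers and relax or contract the muscle through nitric oxide, acetylcholine and neuropeptides. Enteric glia surround them and share their origin from the neural crest, whereas interstitial cells of Cajal arise from mesenchyme, pace the slow waves of the muscle and depend on the receptor tyrosine kinase Kit. Ret on neuron precursors and Erbb3 on glial precursors are cell-surface receptors through which growth factors sustain these lineages.

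Relative depth, read from the ratio of coverage to FPKM, was 81.8% and 79.8% for the RVC libraries and 72.6% for fresh frozen 1, relative to fresh frozen 2, the deepest. The tissue label is ileum and the protocol names distal colon. The leading genes of a distal colon list, Car4, Car1 and Slc26a3, averaged 1803, 1655 and 1115 FPKM. Of a list of 10 ileal genes, Mep1a averaged 154, Fabp2 22.8 and Fabp6 3.37 FPKM, 5 were under 1 FPKM in all 4 libraries, and Fgf15 and Apoa4, which are among these, were listed at 0. Fresh frozen 1 stood apart for the genes described here: it was the lowest library for 21 of the 27 that could be tested (77.8%), against 27.8% of all 13771 genes tested. The highest value was in RVC 1 for 14 of the 27 (51.9%), against 27.1% of all genes, and in fresh frozen 1 for 0, against 27.4%. The labels give every library a batch number of its own, and the effects of batch and of group cannot be told apart. With 2 libraries against 2, an exact permutation test of a single gene cannot give a two-sided p below 0.333. Groups were therefore compared with limma across all genes on log2(scaled FPKM + 1), where 5 of 13771 genes (0.0363%) had an adjusted p under 0.05 and 18.4% an unadjusted p under 0.05.

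None of the 27 tested genes had an adjusted p under 0.05 in limma, and 5 had an unadjusted p under 0.05, which is 18.5% and close to the 18.4% over all genes. Of these, 4 were higher in RVC (14.8%, against 9.38% of all genes) and 1 was lower, against 8.99%. The mean was higher in RVC for 23 of the 27 (85.2%), against 51.0% of all genes. The median difference, RVC minus fresh frozen on the log2 scale, was 0.22, against 0.0066 over all genes. Without fresh frozen 1 the mean was higher in RVC for 16 of 26 (61.5%, against 50.4% of all genes) and the median was 0.043. The groups did not overlap for 13 of the 27 (48.1%), below the 53.2% over all genes. Of these, 11 were higher in RVC (40.7%, against 26.5% of all genes) and 2 were lower (7.41%, against 26.6%). The other 10 genes averaged under 1 FPKM and were not tested: Phox2a, Nefm, Elavl3, Slc18a3, Cartpt, Npy, Chat, Gfap, Sox10 and Foxd3. In whole tissue, fewer cells of a type and less RNA per cell cannot be told apart.

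**Figure D1:**
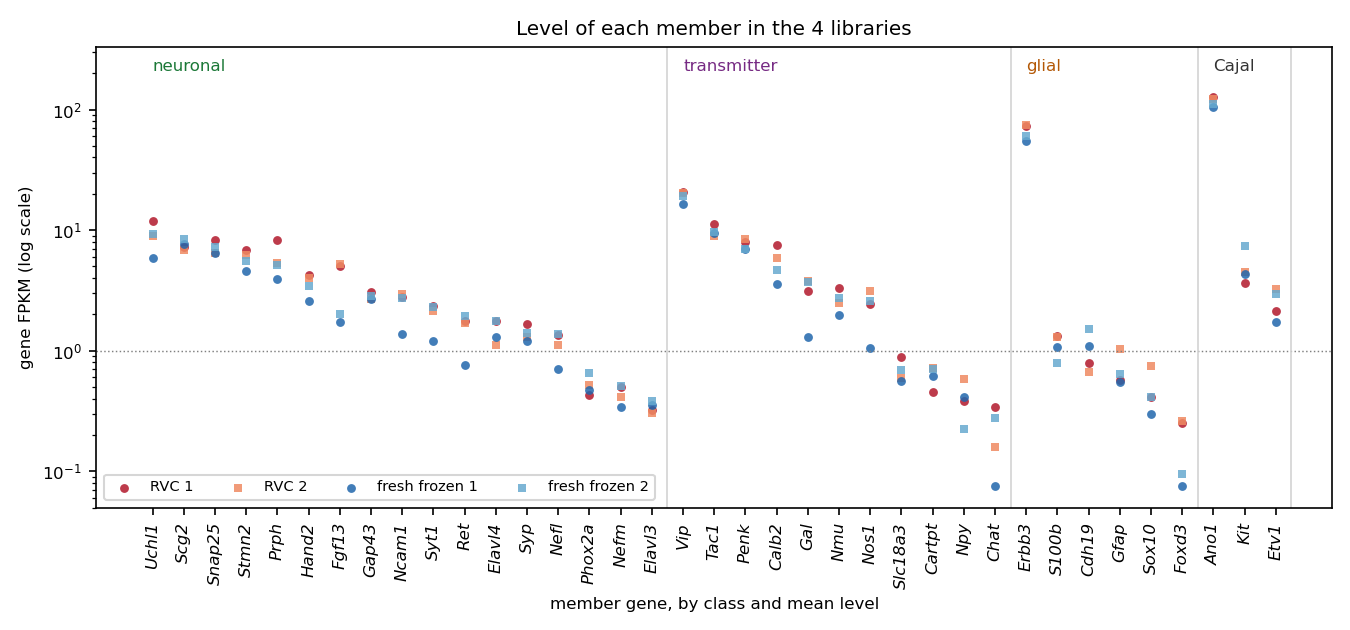
Gene FPKM (log axis) of the 37 measured genes in the 4 libraries, ordered by class and mean; red marks are RVC, blue marks are fresh frozen, and the dotted line is 1 FPKM. Ano1, Erbb3 and Vip stand above the others, and the dark blue circle of fresh frozen 1 is the lowest mark for most genes.

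The level order began with Ano1 at 116 ± 9.87 FPKM (SD, n = 4), Erbb3 at 65.7 ± 9.74 and Vip at 19.2 ± 1.83, and the ranges of these 3 genes over the 4 libraries did not touch each other or that of Tac1, the next gene at 9.81 ± 0.947. From Tac1 down to Foxd3 at 0.170 ± 0.0989 the ranges of all neighbours in the order overlapped. Ano1 owed its first place to short partial transcript models: its 4 full-length transcripts summed to 46.8 and 45.6 FPKM in RVC and 45.0 and 45.7 FPKM in fresh frozen, below Erbb3 in every library.

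Of the 17 neuronal genes measured, 14 were tested and 0 had an adjusted p under 0.05 in limma. An unadjusted p under 0.05 was found for 2 of the 14, against 18.4% of all genes. The mean was higher in RVC for 12 of the 14, with a median log2 difference of 0.26. Their levels summed to 68.0 and 57.2 FPKM in the RVC libraries and to 43.2 and 56.9 FPKM in the fresh-frozen ones, so that the sums of RVC 2 and fresh frozen 2 were nearly the same. The median log2 difference rested on fresh frozen 1: it was 0.016 without that library and 0.48 without fresh frozen 2.

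Uchl1, a ubiquitin hydrolase abundant in neurons and known as PGP9.5, was the most abundant neuronal gene, with a mean of 9.01 FPKM, at 12.0 and 8.94 FPKM in RVC and 5.84 and 9.27 FPKM in fresh frozen. The groups overlapped, since fresh frozen 2 exceeded RVC 2, and the log2 difference was 0.44 (SE 0.22, adjusted p = 0.324). Elavl3, an RNA-binding protein of neurons, was the lowest, with a mean of 0.340 FPKM, at 0.320 and 0.306 FPKM in RVC and 0.355 and 0.381 FPKM in fresh frozen. The highest value was 1.25 times the lowest, with the fresh-frozen pair slightly above the RVC pair. Its paralog Elavl4 averaged 1.49 FPKM and was 3.66 to 5.50 times as abundant as Elavl3 in the 4 libraries.

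Among genes of the synapse and of secretory vesicles, Scg2, a granin of dense-core vesicles, averaged 7.54 FPKM, Snap25, a SNARE protein of vesicle fusion, 7.12 FPKM, Syt1, the calcium sensor of vesicle release, 2.00 FPKM, and Syp, a vesicle membrane protein, 1.39 FPKM. Syp shares 1037 exon bases with the antisense gene Gm14703, at 0.596 and 0.744 FPKM in RVC and 1.00 and 0.891 FPKM in fresh frozen. No strand setting was stated, so reads over these bases could belong to either gene. Scg2 was at 7.23 and 6.90 FPKM in RVC and 7.65 and 8.39 FPKM in fresh frozen. It was the one tested neuronal gene with both fresh-frozen values above both RVC values (log2 difference -0.16, SE 0.12, adjusted p = 0.504). Enteroendocrine cells also make Scg2, Uchl1, Tac1, Penk and Nmu. The log2 differences of Uchl1, Tac1, Penk and Nmu were 0.44, 0.068, 0.20 and 0.22, opposite in sign to that of Scg2. The 19 enteroendocrine genes summed to 266 and 226 FPKM in RVC and 280 and 352 FPKM in fresh frozen, and 6 of their 8 tested genes had a lower mean in RVC (median log2 difference -0.45). The part of enteroendocrine cells in the values of Scg2, Uchl1, Tac1, Penk and Nmu was not tested.

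Of the genes of the axon and its skeleton, Stmn2, a microtubule regulator of growing axons, averaged 5.80 FPKM, the intermediate filament Prph 5.65, the growth-cone protein Gap43 2.81, the adhesion molecule Ncam1 2.47, and the neurofilaments Nefl and Nefm 1.14 and 0.442 FPKM. Prph was at 8.27 and 5.30 FPKM in RVC and 3.95 and 5.09 FPKM in fresh frozen. The groups of this sum over transcripts did not touch, but RVC 2 stood only just above fresh frozen 2, and the adjusted p was 0.279. For the most abundant Prph transcript, of 1757 nt, the groups overlapped, with RVC 2 at 4.099 FPKM and fresh frozen 2 at 4.543 FPKM. A short Prph transcript model of 397 nt was at 1.85 and 0.819 FPKM in RVC and 0.325 and 0.375 FPKM in fresh frozen, without overlap. Ncam1 was at 2.81 and 2.93 FPKM in RVC and 1.39 and 2.75 FPKM in fresh frozen. In Ncam1, Syt1 and Nefl alike, fresh frozen 1 was the lowest library, and fresh frozen 2 was 1.99, 1.93 and 1.96 times as high. Nefl and Nefm lie on opposite strands and share 1152 exon bases in the GENCODE annotation, and no strand setting was stated. Reads over the shared bases could thus be assigned to either gene. The deposited Nefm transcript that reaches Nefl averaged only 2.67e-08 FPKM. The other Nefm transcript held 100% of the Nefm FPKM and lies outside Nefl, so the Nefm value hardly rested on the shared bases.

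Other neuronal genes are regulators of enteric neuron development. Phox2a, a homeobox factor of autonomic neurons, averaged 0.517 FPKM, Ret, the receptor for ligands of the GDNF family, 1.54 FPKM, and Hand2, a basic helix-loop-helix factor, 3.56 FPKM. Phox2a shares 112 exon bases with Inppl1 on the opposite strand. Inppl1 was at 11.5 and 9.72 FPKM in RVC and 9.36 and 10.7 FPKM in fresh frozen, and reads over the shared bases could belong to either gene. Hand2, on chromosome 8 (GRCm39 chr8:57774018-57777668, plus strand), was at 4.28 and 3.98 FPKM in RVC and 2.56 and 3.41 FPKM in fresh frozen. Both RVC values exceeded both fresh-frozen values, with a log2 difference of 0.37 (SE 0.16, unadjusted p = 0.0479, adjusted p = 0.268). The antisense gene Hand2os1 shares 468 exon bases with Hand2 and was at 5.74 and 6.75 FPKM in RVC and 6.38 and 8.51 FPKM in fresh frozen. Its values did not follow those of Hand2, but without a stated strand setting the reads over the shared bases cannot be told apart.

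Ret was at 1.77 and 1.69 FPKM in RVC and 0.765 and 1.94 FPKM in fresh frozen. Here fresh frozen 2 was the highest library and fresh frozen 1 the lowest, 2.53-fold apart, and the adjusted p was 0.580. The co-receptor Gfra1, which binds GDNF, averaged 1.55 FPKM, and the ratio of Ret to Gfra1 was between 0.636 and 1.18 in the 4 libraries.

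Fgf13, an intracellular member of the fibroblast growth factor family that binds voltage-gated sodium channels, had the largest difference of the 27 tested genes. It lies on chromosome X (chrX:58107505-58613431, minus strand), averaged 3.51 FPKM and was at 5.07 and 5.24 FPKM in RVC and 1.74 and 2.01 FPKM in fresh frozen. The pairs were tight and 2.75-fold apart in their means, the log2 difference was 1.10 (SE 0.14), the unadjusted p was 7.48e-05 and the adjusted p was 0.0743, which misses the threshold. The difference sat in short transcript models. The 6 Fgf13 transcripts under 1000 nt summed to 3.98 and 4.35 FPKM in RVC and 1.05 and 0.668 FPKM in fresh frozen. The 3 transcripts of at least 1000 nt, which hold the full coding models, summed to 1.09 and 0.884 FPKM in RVC and 0.690 and 1.34 FPKM in fresh frozen. For the long transcripts the groups overlapped, with fresh frozen 1 lowest and fresh frozen 2 highest. One of the short transcripts, of 456 nt, was at 1.90 and 1.03 FPKM in RVC and at 2.73e-09 and 2.01e-20 FPKM, in effect 0, in fresh frozen. FPKM of such short transcripts is unstable, because few fragment positions fit within them.

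Of the 40 other neuronal genes looked at beside these, 25 were tested, 18 had a higher mean in RVC and 0 had an adjusted p under 0.05. The median log2 difference of the 25 was 0.16. An unadjusted p under 0.05 in limma was found for 3 of the 25, against 18.4% of all genes. All 3 were higher in RVC, against 9.38% of all genes. The most abundant of the 40 were Casz1 at 25.5 FPKM, Vamp2 at 16.8 FPKM and Nsf at 10.2 FPKM. They are a transcription factor, a vesicle SNARE and the ATPase that recycles SNARE complexes. Casz1, Vamp2 and Nsf are not confined to neurons in the gut.

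**Figure D2:**
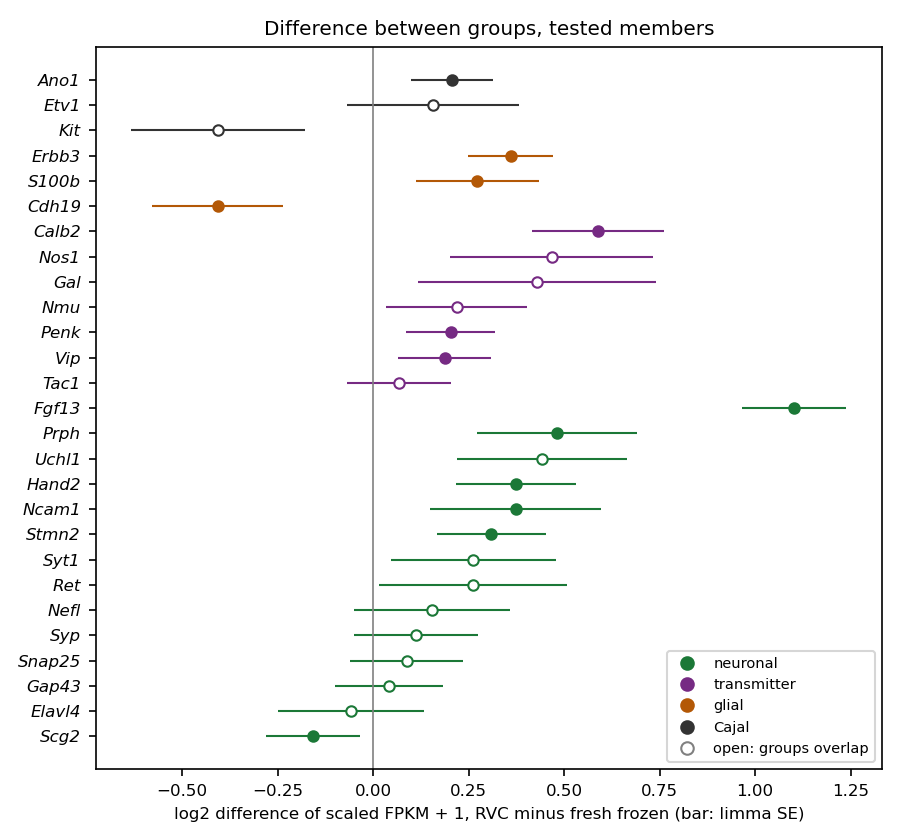
Difference of each of the 27 tested genes between the groups, as log2(scaled FPKM + 1) in RVC minus fresh frozen, with limma's standard error as the bar; open circles are genes whose groups overlap. Fgf13 stands alone at 1.10, 23 of 27 genes lie right of 0, and Cdh19, Kit, Scg2 and Elavl4 lie left of it.

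All 7 tested genes of this class had a higher mean in RVC, with a median log2 difference of 0.22, and 0 of 7 had an adjusted p under 0.05 in limma. An unadjusted p under 0.05 was found for 1 of the 7, against 18.4% of all genes. The 11 genes summed to 58.3 and 55.0 FPKM in RVC and 42.7 and 51.6 FPKM in fresh frozen, so both RVC sums exceeded both fresh-frozen sums. Without fresh frozen 1 the median log2 difference was 0.054.

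Vip, the peptide of inhibitory motor and secretomotor neurons, was the most abundant, on chromosome 10 (chr10:5589218-5597617, plus strand). It was at 20.6 and 20.3 FPKM in RVC and 16.6 and 19.3 FPKM in fresh frozen, a log2 difference of 0.19 (SE 0.12, adjusted p = 0.427). The groups did not touch, although fresh frozen 2 lay closer to the RVC pair than to fresh frozen 1. Nos1, which makes nitric oxide in the same class of inhibitory neurons, averaged 2.31 FPKM and was at 2.42 and 3.13 FPKM in RVC and 1.06 and 2.60 FPKM in fresh frozen. The groups overlapped, and the fresh-frozen libraries were 2.45-fold apart. Vip was 6.48 to 8.49 times as abundant as Nos1 in the other 3 libraries and 15.6 times in fresh frozen 1.

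Cholinergic genes were near the lower end. Chat, the enzyme that makes acetylcholine, was the lowest transmitter gene, with a mean of 0.212 FPKM, at 0.340 and 0.159 FPKM in RVC and 0.0748 and 0.274 FPKM in fresh frozen. These values overlapped between the groups and were 4.54-fold apart between RVC 1 and fresh frozen 1. Slc18a3, the vesicular acetylcholine transporter, whose gene lies within the Chat locus, averaged 0.684 FPKM. Nos1 was 7.13 to 19.7 times as abundant as Chat and 1.91 to 5.26 times as abundant as Slc18a3. Tuft cells also hold Chat. The 12 tuft cell genes summed to 26.5 and 25.0 FPKM in RVC and 19.2 and 21.8 FPKM in fresh frozen, with their most abundant gene, Hpgds, at 8.54 FPKM, and their part in the Chat level was not tested.

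Calb2, which encodes the calcium-binding protein calretinin of excitatory neurons, was the transmitter gene with an unadjusted p under 0.05. It averaged 5.43 FPKM and was at 7.58 and 5.85 FPKM in RVC and 3.60 and 4.67 FPKM in fresh frozen, with a log2 difference of 0.59 (SE 0.17, unadjusted p = 0.0106, adjusted p = 0.168). Both RVC values exceeded both fresh-frozen values. Mesothelium also holds Calb2, and its 9 marker genes had a median log2 difference of -0.15, with 3 higher and 6 lower in RVC. Krt19, Msln and Upk3b, the most abundant of the 9, differed by 0.041, 0.13 and 0.016 on the log2 scale. Of these, Krt19 is not confined to mesothelium, since gut epithelium also expresses it. The part of mesothelium in the Calb2 values was not tested.

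The remaining peptides were Tac1, the precursor of the excitatory tachykinins, at a mean of 9.81 FPKM, Penk, the precursor of enkephalins, at 7.61 FPKM, Gal, galanin, at 2.98 FPKM, Nmu, neuromedin U, at 2.62 FPKM, Cartpt at 0.624 FPKM and Npy at 0.398 FPKM. Penk was at 8.01 and 8.40 FPKM in RVC and 7.02 and 7.01 FPKM in fresh frozen. Its groups did not overlap and the spread within them was small, yet the log2 difference of 0.20 had an adjusted p of 0.375. Gal was at 3.11 and 3.78 FPKM in RVC and 1.31 and 3.72 FPKM in fresh frozen. It repeated the pattern of Ret and Nos1, with a single low library, fresh frozen 1. The ratio of Vip to Tac1, the leading inhibitory and excitatory peptides, was 1.75 to 2.26 in the 4 libraries, and enteroendocrine cells also make Tac1.

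Tac1 gives 3 main coding transcripts, which differ in 2 cassette exons. The exon of 45 bases (GRCm39 chr6:7557216-7557260, plus strand, exon 4 of 7) is left out of the gamma form, and the exon of 54 bases (chr6:7559099-7559152, plus strand, exon 6 of 7), which encodes neurokinin A, is left out of the alpha form. The 2 exons, read from the GRCm39 sequence, are shown because the transcripts below are told apart by them.
Tac1, 45-base exon: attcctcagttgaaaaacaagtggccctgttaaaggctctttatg
Tac1, 54-base exon: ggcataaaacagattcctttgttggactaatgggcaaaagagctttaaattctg
Of the FPKM of these 3 transcripts, the gamma form without the 45-base exon held 49.8% and 51.0% in RVC and 52.3% and 55.8% in fresh frozen. The form with all exons, beta, held 32.5% and 48.4% in RVC and 36.0% and 44.2% in fresh frozen. The alpha form held 17.7% in RVC 1 and 11.7% in fresh frozen 1, but 0.582% in RVC 2 and 0.00646% in fresh frozen 2. Transcripts that encode neurokinin A thus made up 82.3% to 99.99% of the total, and the alpha share differed between libraries of a group rather than between groups. The reads that overlapping transcripts share are assigned by a likelihood model, and a share near 0 is an estimate, not a count.

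Beside the members, 27 other transmitter genes were named and 9 of the 26 measured were tested. The mean was higher in RVC for 7 of the 9, with a median log2 difference of 0.20. In limma 2 of the 9 had an unadjusted p under 0.05, against 18.4% of all genes, and 0 an adjusted p under 0.05. Ddc, the decarboxylase of monoamine synthesis, was the most abundant at 22.1 FPKM, before Slc17a9, a vesicular nucleotide transporter, at 12.9 FPKM and Sst, somatostatin, at 6.51 FPKM. Sst is also 1 of the 19 enteroendocrine genes. Of the genes that receive enteric transmitters, 14 of 37 were tested, 9 had a higher mean in RVC (median log2 difference 0.14), and 0 had an adjusted p under 0.05 in limma. An unadjusted p under 0.05 was found for 3 of the 14, against 18.4% of all genes. The VIP receptor Vipr1 led this list at 29.96 FPKM, followed by the purinergic receptor P2ry1 at 5.69 FPKM and the serotonin receptor Htr4 at 5.05 FPKM.

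Among the 6 glial genes, Erbb3 differed from the rest by its level. Erbb3, on chromosome 10 (chr10:128403392-128425521, minus strand), was at 73.2 and 74.5 FPKM in RVC and 54.5 and 60.6 FPKM in fresh frozen, all of it in the 1 transcript listed for the gene, of 6016 nt. Both RVC values stood clear of both fresh-frozen values, with a log2 difference of 0.36 (SE 0.11, unadjusted p = 0.0138, adjusted p = 0.181). The other 5 glial genes lay between 0.0747 and 1.51 FPKM, and Erbb3 was 100.2 to 181 times as abundant as Sox10. Gut epithelium also expresses Erbb3. The epithelial genes Lgals4, Krt8 and Epcam averaged 1791, 1434 and 743 FPKM, the 14 epithelial genes had a median log2 difference of 0.049, and the receptor partner of Erbb3, Erbb2, averaged 29.8 FPKM, with a log2 difference of 0.46. The part of epithelium in the Erbb3 level was not tested.

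The remaining genes are closer to glia-specific markers. Foxd3, a transcription factor of neural crest progenitors, was the lowest of the 37 genes, at 0.253 and 0.258 FPKM in RVC and 0.0747 and 0.0956 FPKM in fresh frozen. The RVC pair was 3.00-fold above the fresh-frozen pair in its mean, without a test. The deposited confidence bounds overlapped, starting at 0.118 and 0.121 FPKM in RVC and ending at 0.162 and 0.177 FPKM in fresh frozen. Of 2 antisense genes that overlap Foxd3, Gm12688 was at 0.420 and 0.285 FPKM in RVC and 0.153 and 0.167 FPKM in fresh frozen. Without a stated strand setting the reads over the shared bases cannot be told apart. Cdh19, a cadherin of Schwann cells and neural crest derivatives, averaged 1.02 FPKM and was at 0.791 and 0.667 FPKM in RVC and 1.09 and 1.51 FPKM in fresh frozen. Both fresh-frozen values were above both RVC values, with a log2 difference of -0.41 (SE 0.17, unadjusted p = 0.0487, adjusted p = 0.270), and it was the only member with an unadjusted p under 0.05 that was lower in RVC. S100b, a calcium-binding protein of glia, averaged 1.12 FPKM and was at 1.33 and 1.30 FPKM in RVC and 1.07 and 0.784 FPKM in fresh frozen, which is the opposite direction (log2 difference 0.27, adjusted p = 0.384). Gfap, the glial intermediate filament, averaged 0.700 FPKM and Sox10, a transcription factor of neural crest and glia, 0.469 FPKM. Both were highest in RVC 2, at 1.03 and 0.744 FPKM, while their other 3 values overlapped between the groups.

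The untested Gfap, Sox10 and Foxd3 averaged 0.800, 0.579 and 0.256 FPKM in RVC, above 0.599, 0.358 and 0.0851 FPKM in fresh frozen. Of the 3 glial genes tested, 2 had a higher mean and 1, Cdh19, a lower mean in RVC, with a median log2 difference of 0.27. Without Erbb3 the median of the other 2 tested genes was -0.067. Among 28 other glial genes, 16 were tested and 9 had a higher mean in RVC, with a median log2 difference of 0.043 and 0 adjusted p-values under 0.05. In limma 3 of the 16 had an unadjusted p under 0.05, against 18.4% of all genes. All 3 were higher in RVC, against 9.38% of all genes. Apoe at 52.9 FPKM, Lpar1 at 14.1 FPKM and Cryab at 11.5 FPKM led the list of 28, all of which other cells of the gut wall also express.

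The 3 genes of interstitial cells of Cajal differed from each other in level and in direction. Ano1, the calcium-activated chloride channel of the pacemaker current, lies on chromosome 7 (chr7:144142286-144305711, minus strand) and was at 127 and 122 FPKM in RVC and 105 and 111 FPKM in fresh frozen. The groups of this sum did not overlap (log2 difference 0.21, SE 0.11, adjusted p = 0.341). Its full-length transcripts alone overlapped, at 46.8 and 45.6 FPKM in RVC and 45.0 and 45.7 FPKM in fresh frozen. Kit averaged 4.96 FPKM and was at 3.65 and 4.45 FPKM in RVC and 4.31 and 7.43 FPKM in fresh frozen. Here a single library, fresh frozen 2, was high, the other 3 overlapped, and the log2 difference of -0.41 had an adjusted p of 0.367. Etv1, an ETS-family transcription factor of these cells, was the lowest, with a mean of 2.51 FPKM, at 2.15 and 3.23 FPKM in RVC and 1.74 and 2.93 FPKM in fresh frozen. Its values depended on the library more than on the group (log2 difference 0.16, adjusted p = 0.724).

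By the sum over all transcripts, Ano1 was 14.9 to 34.8 times as abundant as Kit. The short partial models of Ano1 enter this ratio, which would be lower with its full-length transcripts alone. Cells other than interstitial cells hold both genes, and their part in the Ano1 values was not tested. Kit is also a gene of mast cells and of deep crypt secretory cells of the colon. The 10 mast cell genes summed to 1.96 and 1.13 FPKM in RVC and 2.18 and 1.34 FPKM in fresh frozen, and 9 of them were under 1 FPKM in all 4 libraries. Fresh frozen 2, the library with the highest Kit, also had the highest Muc2, a secretory mucin, at 302 FPKM against 139 to 176 in the other 3 libraries. Reg4, a gene of deep crypt secretory cells, was at 70.2 and 80.4 FPKM in RVC and 123 and 131 FPKM in fresh frozen. Muc2 and Reg4 were picked from the 14 epithelial genes after their values were seen. Of these 14, 8 had a higher mean and 6 a lower mean in RVC, with a median log2 difference of 0.049. The part of mast cells and of deep crypt secretory cells in the Kit values was not tested. Kitl, the ligand of Kit, averaged 16.6 FPKM and was 2.70 to 3.96 times as abundant as Kit.

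Of 12 other Cajal cell genes, 9 were tested and 5 had a higher mean in RVC, with a median log2 difference of 0.17 and 0 adjusted p-values under 0.05. In limma 2 of the 9 had an unadjusted p under 0.05, against 18.4% of all genes. Thbs4 at 72.9 FPKM, the chloride cotransporter Slc12a2 at 29.0 FPKM and the bicarbonate cotransporter Slc4a4 at 23.4 FPKM led the list of 12. Slc12a2 and Slc4a4, which epithelium also expresses, went in opposite directions, with log2 differences of -0.92 and 0.56. The PDGFRA-positive interstitial cells, which neighbour the Cajal cells, were represented by 5 tested genes with a median log2 difference of 0.037. Growth factors and receptors that act on enteric nerve, glia and Cajal cells had a median of 0.26 over 11 tested genes, 8 of them higher in RVC. In limma 0 of the 11 had an adjusted p under 0.05 and 4 an unadjusted one, against 18.4% of all genes. This list holds Ret, Erbb3 and Kit themselves.

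The deposited values were given per transcript, and several members have transcripts that encode known protein forms. Over the 37 genes, the most abundant transcript held a median share of 90.2% ± 1.25 (SD, n = 4) of the gene's FPKM, and it was the same transcript in all 4 libraries for 31 genes, 8 of which have 1 transcript. Of 147 member transcripts, 31 were tested and 0 had an adjusted p under 0.05, against 1 of 24080 transcripts overall (0.00415%). Unadjusted p-values under 0.05 were found for 5 of the 31, against 15.6% of all transcripts, and all 5 were higher in RVC, against 8.02%. They were transcripts of Ano1, Calb2, Erbb3, Snap25 and Uchl1. For genes whose second transcript averaged at least 0.5 FPKM, the share of the first in the sum of both was compared. The groups were at least 5 percentage points apart for 5 of 11 members (45.5%), against 16.3% of 7511 genes, and did not overlap for 6 of 11 (54.5%), against 43.9%. The 5 were Kit, Ret, Fgf13, Snap25 and Prph. The second transcripts of Ret, Fgf13 and Prph averaged 0.706, 0.773 and 0.843 FPKM, near the minimum of 0.5, and the 7511 genes were not matched for level. These 5 genes, and the exons shown here, were picked out after the values were seen, and no test was made of the shares.

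Kit messages exist in a form with and a form without 12 bases at the end of exon 9, in the part that encodes the receptor near the cell membrane. The end of the longer exon (chr5:75799783-75799818, plus strand, exon 9 of 21) is shown with the 12 bases in capitals.
Kit, end of exon: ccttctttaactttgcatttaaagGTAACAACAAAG
The form without these bases held 46.3% and 47.3% of the FPKM of both forms in RVC and 59.2% and 63.4% in fresh frozen. The RVC pair was close and lay below the fresh-frozen pair. In FPKM, the form without the 12 bases was at 1.68 and 2.03 in RVC and 2.05 and 4.27 in fresh frozen, whereas the form with them was at 1.95 and 2.26 in RVC and 1.42 and 2.46 in fresh frozen. Fresh frozen 2 thus stood apart in the shorter form, while the longer form varied less between libraries.

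Snap25 has 2 alternative versions of exon 5, of 118 bases each, which lie next to each other in the genome and are used one at a time. They differ at 31 of 118 bases and are 73.7% identical. The upstream version (chr2:136611663-136611780, plus strand) and the downstream version (chr2:136611977-136612094, plus strand) are shown with the differing bases in capitals.
Snap25, upstream exon: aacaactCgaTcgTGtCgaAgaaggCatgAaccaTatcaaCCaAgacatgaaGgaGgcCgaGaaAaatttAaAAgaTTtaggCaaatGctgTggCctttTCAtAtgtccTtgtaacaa
Snap25, downstream exon: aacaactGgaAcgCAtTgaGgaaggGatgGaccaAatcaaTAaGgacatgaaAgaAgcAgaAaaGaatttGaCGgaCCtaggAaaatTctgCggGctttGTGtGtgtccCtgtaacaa
The downstream version, known as the form of mature neurons, held 55.8% and 55.1% in RVC and 64.7% and 70.9% in fresh frozen. The transcript with the upstream version was at 3.60 and 2.86 FPKM in RVC and 2.22 and 2.01 FPKM in fresh frozen, and both RVC values exceeded both fresh-frozen values (log2 difference 0.43, adjusted p = 0.313 over all transcripts). The transcript with the downstream version was at 4.54 and 3.52 FPKM in RVC and 4.08 and 4.91 FPKM in fresh frozen, and the groups overlapped. The transcript with the upstream version is modelled at 1014 nt and the other at 2116 nt, so their FPKM also rest on different ends.

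Ret makes a receptor with a short or a long tail. The coding bases of each tail, without the stop codon, are shown on the minus strand of chromosome 6, from chr6:118132220-118132248 (29 bases, exon 19 of 19) and chr6:118130817-118130971 (155 bases, exon 20 of 20).
Ret, short coding tail: gtagaatttcacatgcatttactagattc
Ret, long coding tail: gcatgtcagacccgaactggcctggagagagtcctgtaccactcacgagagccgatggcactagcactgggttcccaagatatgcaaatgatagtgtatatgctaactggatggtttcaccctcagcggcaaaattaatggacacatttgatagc
The transcript with the short tail held 56.3% and 50.3% of both in RVC and 30.5% and 38.5% in fresh frozen, and these pairs did not overlap. It was at 0.995 and 0.847 FPKM in RVC and 0.233 and 0.747 FPKM in fresh frozen. The transcript with the long tail was at 0.773 and 0.839 FPKM in RVC and 0.532 and 1.19 FPKM in fresh frozen. Both transcripts were lowest in fresh frozen 1.

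Ano1 has 3 short alternative exons that change the calcium and voltage response of the channel. They are shown because the deposited transcripts separate them, in the order in which the gene is read on the minus strand of chromosome 7: an exon of 66 bases (chr7:144202312-144202377), one of 12 bases (chr7:144173212-144173223) and one of 78 bases (chr7:144169634-144169711).
Ano1, 66-base exon: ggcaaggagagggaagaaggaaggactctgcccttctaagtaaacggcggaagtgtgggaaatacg
Ano1, 12-base exon: gaagctgtcaag
Ano1, 78-base exon: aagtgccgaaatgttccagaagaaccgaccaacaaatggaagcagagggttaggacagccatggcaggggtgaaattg
Of the 4 full-length transcripts, the one with the 12-base exon and without the others held 92.1% and 94.6% in RVC and 96.4% and 96.4% in fresh frozen. It was at 43.0 and 43.1 FPKM in RVC and 43.4 and 44.0 FPKM in fresh frozen, the closest agreement between libraries of the Ano1 transcripts above 1 FPKM. The full-length transcript with the 78-base exon was between 0.336 and 0.572 FPKM. The 66-base exon was read from a partial model of 1004 nt, and not every deposited Ano1 transcript was searched for it. That model held 31.6% to 35.3% of the FPKM of the gene, and the share of the exon among full-length messages could not be read. Another partial model, of 926 nt, starts at an upstream first exon. It was at 30.2 and 29.1 FPKM in RVC and 18.7 and 19.9 FPKM in fresh frozen, a log2 difference of 0.59 with an adjusted p of 0.214, the lowest of the 31 member transcripts tested. The log2 difference of Ano1 was 0.092 over transcripts of at least 1000 nt, a setting added after the data were seen, and 0.0022 with its most abundant transcript alone, against 0.21 for the sum.

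**Figure D3:**
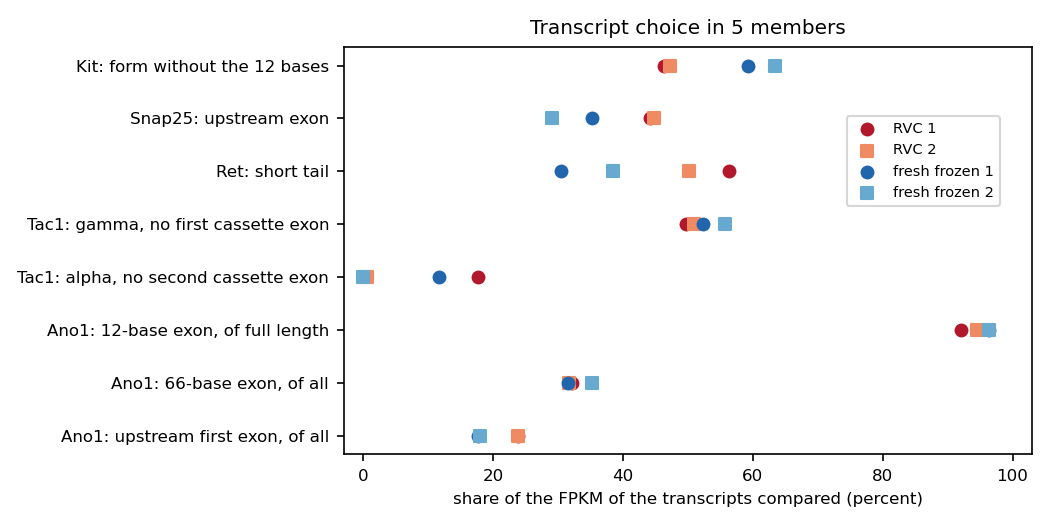
Share of the FPKM of the compared transcripts, in percent, in each library, for alternative forms of Kit, Snap25, Ret, Tac1 and Ano1. For Kit, Snap25 and Ret the 2 red RVC marks lie apart from the 2 blue fresh-frozen marks, while for the Tac1 alpha form, which lacks the second cassette exon of 54 bases, RVC 1 and fresh frozen 1 lie at 17.7% and 11.7% and the other 2 libraries near 0.

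The nerve genes were set beside other cells of the gut wall library by library, without a test of the difference between lists. Relative to each gene's mean over the 4 libraries on the log2 scale, the median neuronal gene was at 0.18 and 0.012 in RVC and at -0.34 and 0.064 in fresh frozen. Transmitter genes were at 0.11 and 0.13 in RVC and at -0.28 and 0.026 in fresh frozen. Smooth muscle genes were at 0.13 and 0.47 in RVC and at -0.29 and -0.32 in fresh frozen. They were thus highest in RVC 2 and low in both fresh-frozen libraries, and 13 of 15 had an unadjusted p under 0.05 in limma, all higher in RVC, against 9.38% of all genes. Actg2, Acta2 and Cnn1, which encode contractile proteins of smooth muscle, led that list at 288, 263 and 152 FPKM, and the 15 genes summed to 1247 and 1823 FPKM in RVC and 790 and 841 FPKM in fresh frozen. The list median was 0.61 for smooth muscle and 0.48 for endothelium, against 0.26 for neuronal genes. No gene of any of these lists had an adjusted p under 0.05. The part of muscle content in the values of the nerve genes was not tested.

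**Figure D4:**
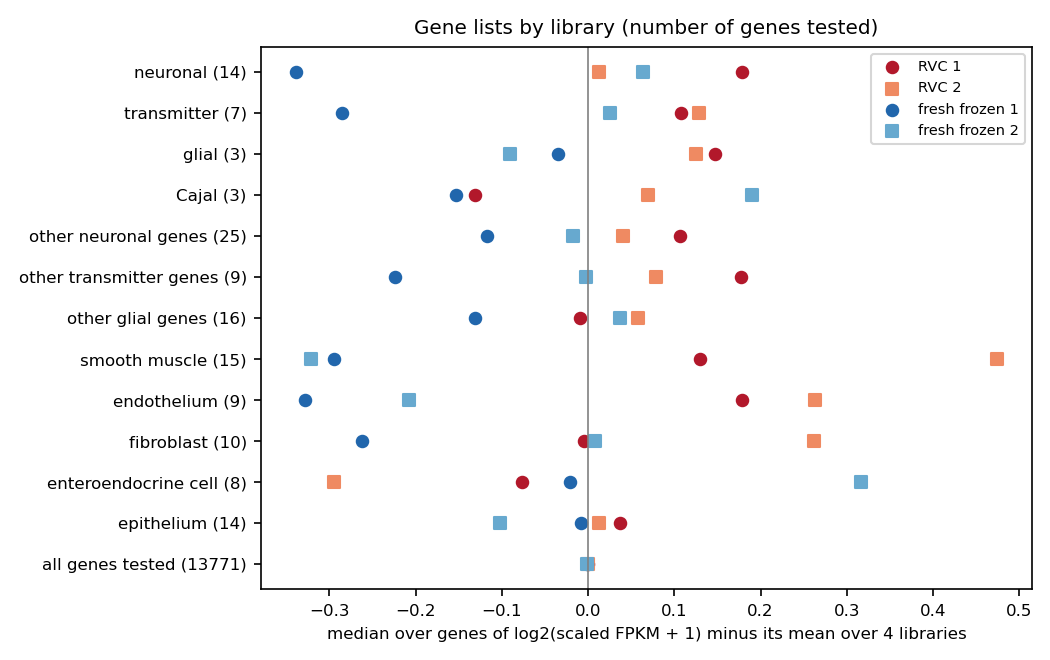
Median over the tested genes of each list of log2(scaled FPKM + 1) minus the gene's mean over the 4 libraries, by library, with the number of genes tested in brackets. Neuronal and transmitter genes have 1 low library, fresh frozen 1, whereas both fresh-frozen libraries are low for smooth muscle and endothelium.

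The median gap between the fresh-frozen libraries differed between classes of transcript length. For members whose most abundant transcript had at least 4000 nt (Ano1, Erbb3, Etv1, Kit, Ncam1, Nos1, Ret and Syt1), the median of fresh frozen 2 minus fresh frozen 1 was 0.64 on the log2 scale, and 8 of 8 were higher in fresh frozen 2. Over all 3072 genes of that length it was 0.098, with 68.6% higher in fresh frozen 2. For members of 2000 to 4000 nt the median was 0.26 (8 of 8), against 0.0033 over 4610 genes. Members under 2000 nt had a median of 0.24 (10 of 11), against -0.071 over 6089 genes. In each length class the median of the members thus lay above that of all genes, and it was highest for the long ones. Single members departed from this order. The largest gap was 1.05, for Gal with a transcript of 788 nt, and Uchl1 with 1177 nt had 0.61. The long Ano1 and Erbb3 had gaps of only 0.10 and 0.18. Between the RVC libraries the same medians, RVC 2 minus RVC 1, were -0.16, -0.15 and 0.029 from the shortest class to the longest.

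**Figure D5:**
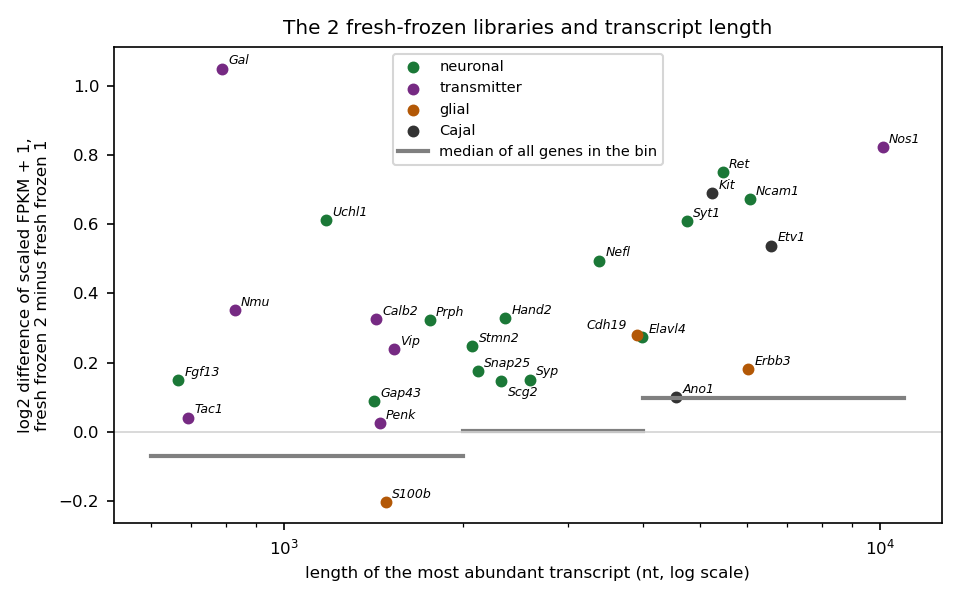
Difference between the fresh-frozen libraries, as log2(scaled FPKM + 1) in fresh frozen 2 minus fresh frozen 1, against the length of the most abundant transcript in nt (log axis), for the 27 tested genes; grey bars are the medians of all genes tested under 2000 nt, from 2000 to 4000 nt and above. Nearly all members lie above 0, S100b lies below it, and Nos1, Ret and Ncam1 lie high among the long transcripts. Gal, with a short transcript, lies highest.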

How the data were processed

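RNA was measured in 4 libraries, 2 labelled RVC and 2 labelled fresh frozen. Ribosomal RNA was depleted, and read pairs came from an Illumina NextSeq, per the labels' protocols. Per the submitters' processing notes, TopHat2 2.1.1, Cufflinks 2.2.1 and the build GRCm39 were used. The annotation release and strand setting are not given in the sources used here. The authors deposited FPKM per transcript, with coverage (a signal of read depth per base) and transcript length, per the file headers. Because FPKM come from a likelihood model, reads were not recovered from them, count tests were not applied, and absolute depth is unknown.

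Gene FPKM was the sum over transcripts of a gene. After median-ratio scaling of the libraries, log2(scaled FPKM + 1) was fitted with limma 3.58.1 in R 4.3.3 (lmFit, eBayes with a mean-variance trend, no covariate, two-sided), adjusted over the whole gene or transcript table (Benjamini-Hochberg, threshold 0.05). Tested genes had a mean of at least 1, a longest transcript of at least 300 nt and status OK throughout, which gave 13771 genes and 24080 transcripts. On simulated data with 200 changed genes among 13771, the test found 75.2% of 2-fold and 99% of 4-fold changes, with 5.79% false calls. For 24080 transcripts the recovery was 0.4% and 46.8%, so the transcript test had little power. The simulated errors were independent between genes and drawn from the variances that limma had fitted, without shifts shared by the genes of a library. The rates need not hold for the deposited libraries. Exon sequences and annotation came from GRCm39 and GENCODE vM39 with pysam 0.24.0.

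The members and lists were chosen with earlier results of these data known. Every member is given by its mean. Values per library are given for members of at least 10 FPKM, the lowest and highest of each class and those with an unadjusted p under 0.05. Of other lists at most the 3 most abundant genes were to be named. Further genes and the exons shown were picked after seeing their values. The alternatives tried were another pseudocount, scaling, filter on level, length or status, the most abundant transcript, longer transcripts only, no trend, a block on sample number and each library left out.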

Additional observations from a re-analysis of the deposited data

How the results depend on the processing

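Members with an adjusted p under 0.05 in limma numbered 0 under every setting tried except the replicate block. The count over all genes (5) was 0 with no filter on low values (3531 at an unadjusted p under 0.05), 14 with a mean of at least 5 FPKM, 1 with only the most abundant transcript of a gene, 0 over transcripts of at least 300 nt (2577), 357 over transcripts of at least 1000 nt, 0 without the trend (2461) and 8 to 40 with a library left out (29 without RVC 1, 8 without RVC 2, 40 without fresh frozen 1, 22 without fresh frozen 2). The count of transcripts (1) was 0 with no filter (9176), 6 with a mean of at least 5 FPKM, 7 with no length minimum and 0 with any library left out (2134 to 2999). The labels number the libraries 1 and 2 in each group without saying that a number is shared, and the deviations of same-numbered libraries correlated at -0.134 over 13771 genes. With the replicate block 112 genes and 1 member, Fgf13 (adjusted p = 0.0143, range over settings 0.0143 to 0.402), were called. With the numbers crossed, a setting added after the data were seen, 12 genes and 0 members were called.

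Class medians with a library left out were 0.016 to 0.48 for neuronal, 0.054 to 0.39 for transmitter, 0.26 to 0.32 for glial and -0.11 to 0.25 for Cajal genes; the glial median was 0.37 with a pseudocount of 0.1, 0.21 with no filter, 0.36 with a mean of at least 5 FPKM (Erbb3 alone), 0.33 with the most abundant transcript and 0.33 over transcripts of at least 1000 nt. The Cajal median was -0.24 with the most abundant transcript and -0.088 over transcripts of at least 1000 nt. Of 324 log2 differences of members under other settings, 6 changed sign: Elavl4 (0.080) and Etv1 (-0.088) over transcripts of at least 1000 nt, Gap43 there (-0.021) and with the most abundant transcript (-0.018), and Snap25 (-0.11) and Tac1 (-0.025) with the most abundant transcript. With a library left out, 13 of 106 changed sign, in 9 of 27 genes. Their ranges were -0.25 to 0.13 for Elavl4, -0.12 to 0.64 for Ret, -0.065 to 0.24 for Snap25, -0.038 to 0.12 for Gap43, -0.044 to 0.57 for Syt1, -0.095 to 0.40 for Nefl, -0.079 to 0.21 for Tac1, -0.099 to 0.95 for Gal and -0.11 to 0.42 for Etv1. The cause of these changes was not tested. The lone library of a group was then assumed to vary like the other group.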
